A study of Mus musculus with 9 samples.

Results

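The MiT family is a group of 4 basic helix-loop-helix leucine zipper transcription factors, encoded by Mitf, Tfec, Tfeb and Tfe3, and all 4 genes were present by symbol among the 32285 genes of each count matrix. Their RNA was followed in nuclei of mouse epididymal fat, the visceral depot that lies along the epididymis, in 9 diet groups with 1 library each. All mice were male C57BL/6J without a transgene, and each library pooled nuclei from 5 mice, so no group has an error between animals or pools.

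C mice ate chow until 18 weeks of age, CC until 26 weeks and CCC until 39 weeks. The labels call this diet chow, the series description calls the control diet low fat, and by the methods of the study CC and CCC had been changed from the low-fat diet of C to another chow. H mice had 12 weeks of high-fat diet (HFD) and were 18 weeks old, and HH mice had 25 weeks of HFD and were 31 weeks old. HC and HHC mice went back to chow for 8 weeks after these HFD phases, lost weight, and were 26 and 39 weeks old. CCH mice had their first HFD, for 4 weeks, after 26 weeks of life on chow, and HCH mice had the same 4 weeks of HFD after a first phase of HFD and weight loss. Both were 30 weeks old. CC, CCC, HC and HHC carry the name S019 in their titles and the other 5 carry S075, and these are called sets here. Whether a set is a sequencing run or a batch of preparation is not given. Every HFD library is in one set and every weight loss library in the other.

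MiT factors bind E-box letters in promoters, as homodimers or as heterodimers with each other. TFEB, TFE3 and MITF are held in the cytoplasm when active mTORC1 phosphorylates them on the lysosome, through the Rag GTPases and the folliculin complex, and they enter the nucleus on starvation or lysosomal stress to switch on genes of lysosomes and autophagy. Much of their control is therefore at the level of the protein, which counts of RNA do not show. MITF is best known as the master regulator of pigment cells and as a factor of mast cells and osteoclasts, and TFEC is the member known for its expression in macrophages.

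The E-box letters that the family is known to bind were searched for in promoter windows (250 bases before to 50 after a transcription start, from RefSeq, build GRCm38.p6), on both strands. The letters TCACGTGA, the core of the lysosomal CLEAR element, which contain the shorter E-box CACGTG, were in 0.974% of all 32851 windows. CACGTG, counted also where it lies inside TCACGTGA, was in 7.15% and the M-box TCATGTG in 3.77%. Among lists of genes known to lie in this pathway, TCACGTGA was in 3 of 11 windows of V-ATPase subunits (the proton pump of the lysosome), 4 of 13 of lysosomal membrane proteins, 3 of 26 of lysosomal hydrolases, 1 of 10 of autophagy genes, 1 of 21 of genes of upstream control and 0 of 9 of pigment cell targets. The M-box was in 1 of 11, 2 of 13, 5 of 26, 0 of 10, 3 of 21 and 4 of 9 windows of these lists, in the same order. The 9 windows of the members themselves held none of these letters. Such a match describes the letters only, and no binding was measured. The 250 bases before the start are shown for 4 genes of lysosomal proteins whose values are given further on, 5′ to 3′ on the strand of the gene, with the motif letters in capitals, because they show the letters by which the family is known to recognise a promoter. They were picked for holding the letters. Among the other genes named further on, the windows of Gpnmb, Ctsk, Cd63, Fnip2, Sqstm1, Gabarap, Map1lc3b, Uvrag, Bcl2, Rraga, Flcn and Rragd held none of them, and there was no window for Atp6v0d2 and Atp6v1b2.
Gla chrX:134601006-134601255: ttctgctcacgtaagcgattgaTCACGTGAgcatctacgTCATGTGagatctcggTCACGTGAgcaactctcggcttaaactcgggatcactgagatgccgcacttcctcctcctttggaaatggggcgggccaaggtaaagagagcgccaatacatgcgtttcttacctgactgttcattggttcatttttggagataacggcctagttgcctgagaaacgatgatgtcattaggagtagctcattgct
Ctsd chr7:142387828-142388077: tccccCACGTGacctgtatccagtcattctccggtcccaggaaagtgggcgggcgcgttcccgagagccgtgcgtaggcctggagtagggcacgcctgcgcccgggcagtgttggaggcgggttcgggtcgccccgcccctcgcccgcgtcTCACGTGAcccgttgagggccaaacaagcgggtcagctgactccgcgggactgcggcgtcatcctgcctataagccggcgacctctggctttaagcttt
Lamp1 chr8:13158911-13159160: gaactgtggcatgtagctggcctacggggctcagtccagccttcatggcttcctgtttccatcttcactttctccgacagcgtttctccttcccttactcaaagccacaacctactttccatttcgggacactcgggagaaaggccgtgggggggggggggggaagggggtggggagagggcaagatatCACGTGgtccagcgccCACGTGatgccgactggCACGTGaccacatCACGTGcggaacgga
Pip4p1 chr14:50930850-50931099: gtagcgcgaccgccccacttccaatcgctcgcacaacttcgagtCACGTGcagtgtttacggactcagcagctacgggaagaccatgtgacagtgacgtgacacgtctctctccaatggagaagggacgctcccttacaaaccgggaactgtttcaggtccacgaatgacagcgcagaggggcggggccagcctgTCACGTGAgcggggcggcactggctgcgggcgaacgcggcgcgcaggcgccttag
The Gla window held 2 copies of TCACGTGA with an M-box between them, the Ctsd and Pip4p1 windows 1 copy of TCACGTGA and a further CACGTG each, and the Lamp1 window 4 copies of CACGTG.

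The files held 91687 barcodes, and 73135 nuclei were kept. Libraries had 22599619 to 66615262 UMIs (unique molecular identifiers, 1 for each RNA molecule captured), and the median kept nucleus had 2053 to 3208. At most 0.493% of the barcodes of the smaller library were shared between any pair of libraries. Nuclei were gated into classes by marker genes, none of them a member, and a class is called "-like" because it rests on markers alone. Levels are UMIs of a gene per 1000000 UMIs of its class in the library (CPM), and their 95% intervals are exact Poisson intervals that cover counting error only. The gate named 18557 macrophage-like, 15159 progenitor-like and 7306 adipocyte-like nuclei, and left 16020 ungated. In macrophage-like nuclei the 13 macrophage markers summed to 4910 to 8169 CPM and the 10 adipocyte markers to 169 to 2682 CPM, highest in CC and lowest in H. In adipocyte-like nuclei the macrophage markers summed to 437 to 1084 CPM and no macrophage marker was at 0 in any library. In all, 10.6% of the macrophage-like and 5.05% of the adipocyte-like nuclei lay near the limits of the gate.

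Mitf (ENSMUSG00000035158, GRCm38 chromosome 6, 97807052 to 98021349, plus strand, 214.3 kb) had its highest mean level in macrophage-like nuclei. In macrophage-like nuclei it stood at 1653, 1395 and 1659 CPM in the chow libraries C, CC and CCC, at 2653 and 2259 in H and HH, at 3317 and 2742 in HC and HHC, and at 1691 and 2439 in CCH and HCH. The mean over libraries was 2201 ± 643 CPM (SD, n = 9). Every library was far above its own endothelial-like nuclei, which ranged from 88.3 to 476 CPM.

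Mast-like nuclei came next, with 1802 CPM in HH and 1805 in HHC, the only libraries with at least 50 such nuclei. Mast cells are a classical site of MITF function. Progenitor-like nuclei, the fibroblast-like precursors of adipocytes, had 767 ± 172 CPM (SD, n = 9), from 558 in CCH to 1095 in HC. The log2 ratio of macrophage-like over progenitor-like nuclei of the same library averaged 1.495, above 0 in 9 of 9 libraries (exact sign-flip permutation test, two-sided, unadjusted p = 0.00391, the smallest that 9 libraries allow, for a pair chosen after the levels were seen). The share of all genes that were higher in macrophage-like than in progenitor-like nuclei in 9 of 9 libraries was not counted. Below the progenitors, 9 classes had means between 150 and 348 CPM. No neighbouring pair among them passed after adjustment, but the adjustment left this test little room to pass, as given below.

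Tfec (ENSMUSG00000029553, chromosome 6, 16833373 to 16898441, minus strand, 65.1 kb) was low outside macrophages. In macrophage-like nuclei it stood at 52.2, 90.7 and 101 CPM in C, CC and CCC, at 105 and 80.4 in H and HH, at 88.8 and 96.9 in HC and HHC, and at 91.9 and 72.4 in CCH and HCH, a mean of 86.5 ± 16.2 (SD, n = 9). Adipocyte-like nuclei had 0.30 to 6.89 CPM and progenitor-like nuclei 0.295 to 6.35 CPM. The class with the second highest mean was epididymal epithelial-like, at 25.0 ± 14.1 CPM (SD, n = 9).

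In these epithelial-like nuclei Tfec had 32, 21 and 19 UMIs in C, CC and CCC, 24 and 8 in H and HH, and 25 and 29 in CCH and HCH, but 1 in HC and 2 in HHC (1.34 and 7.29 CPM against 19.7 to 45.0 in the other 7). Macrophage markers summed to 275 to 1187 CPM in the same nuclei, with 275 in HC and 762 in HHC. The epithelial markers themselves summed to 3512 CPM in HC and 2589 in HHC, against 1501 to 2144 in the other 7. Adipocyte markers reached 2624 CPM in CC, above its 1501 CPM of epithelial markers, and 16.4% of these nuclei lay near the limits of the gate. The part of this make-up in the Tfec counts was not tested. Weight loss against chow gave -2.76 ± 0.64 for Tfec in this class (SE, edgeR, adjusted p = 0.306), which did not pass. The share of all genes that separate HC and HHC from the other 7 in this class was not counted. Macrophage-like nuclei exceeded the epithelial-like nuclei in Tfec by 2.10 ± 1.46 on the log2 scale (SD, n = 9), in 9 of 9 libraries. The exact sign-flip permutation p was 0.00391 and the adjusted value over 43 neighbouring pairs of classes was 0.168. None of the 43 pairs passed after adjustment and 5 had an unadjusted p under 0.05. The smallest p possible was 0.00391 with 9 libraries and 0.0156 with 7, and higher with fewer. A lone pair at 0.00391 adjusts to 0.168, so the test cannot show that neighbouring classes are alike. How many of all genes differ between neighbouring classes in every library was not counted.

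Tfeb (ENSMUSG00000023990, chromosome 17, 47737030 to 47792419, plus strand, 55.4 kb) was found in all 12 classes. It was highest in B cell-like nuclei, at 220 ± 64.6 CPM (SD, n = 7). Macrophage-like nuclei followed at 163 ± 74.6 (SD, n = 9) and lymphatic endothelial-like nuclei at 147 ± 41.8 (SD, n = 8). B cell-like exceeded macrophage-like nuclei by 0.40 ± 0.33 on the log2 scale in 7 of 7 libraries (exact sign-flip permutation p = 0.0156, adjusted 0.224), while macrophage-like and lymphatic endothelial-like nuclei differed by 0.03 ± 0.58 (n = 8).

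In macrophage-like nuclei Tfeb stood at 96.7, 139 and 183 CPM in C, CC and CCC, at 140 and 124 in H and HH, at 315 and 251 in HC and HHC, and at 95.6 and 123 in CCH and HCH. HC and HHC were the highest. In adipocyte-like nuclei it stood at 26.2, 74.96 and 78.04 CPM in C, CC and CCC, at 30.5 and 30.2 in H and HH, at 118 and 69.5 in HC and HHC, and at 39.3 and 29.0 in CCH and HCH. All 4 libraries of set S019 thus lay above all 5 of set S075 in adipocyte-like nuclei, whatever the diet, and 11% of genes separated the sets in one direction or the other. Tfec separated them there as well, at 3.46 to 6.89 against 0.30 to 1.89 CPM. The same was so for Tfeb in progenitor-like nuclei (89.6 to 124 CPM against 46.4 to 66.5, against 11.1% of genes) and in both the perivascular and the non-perivascular macrophages described below (8.23% and 6.81% of genes). In all macrophage-like nuclei the sets overlapped slightly, at 139 to 315 against 95.6 to 140 CPM, where 8.16% of genes separated them.

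Tfe3 (ENSMUSG00000000134, chromosome X, 7762560 to 7775202, plus strand, 12.6 kb) was found at a low level in each class. In macrophage-like nuclei it stood at 50.3, 41.1 and 66.0 CPM in C, CC and CCC, at 94.9 and 81.8 in H and HH, at 63.9 and 70.5 in HC and HHC, and at 49.1 and 70.3 in CCH and HCH, so that H and HH were the highest. Macrophage-like nuclei had 65.3 ± 16.9 CPM (SD, n = 9), progenitor-like nuclei 32.0 ± 6.92 and adipocyte-like nuclei 21.0 ± 4.63. Macrophage-like nuclei were above progenitor-like nuclei of their library in 9 of 9 libraries, by 1.01 on average on the log2 scale (exact sign-flip permutation test, unadjusted p = 0.00391, a pair chosen after the levels were seen). As for Mitf, the share of all genes that do so was not counted.

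**Figure D1:**
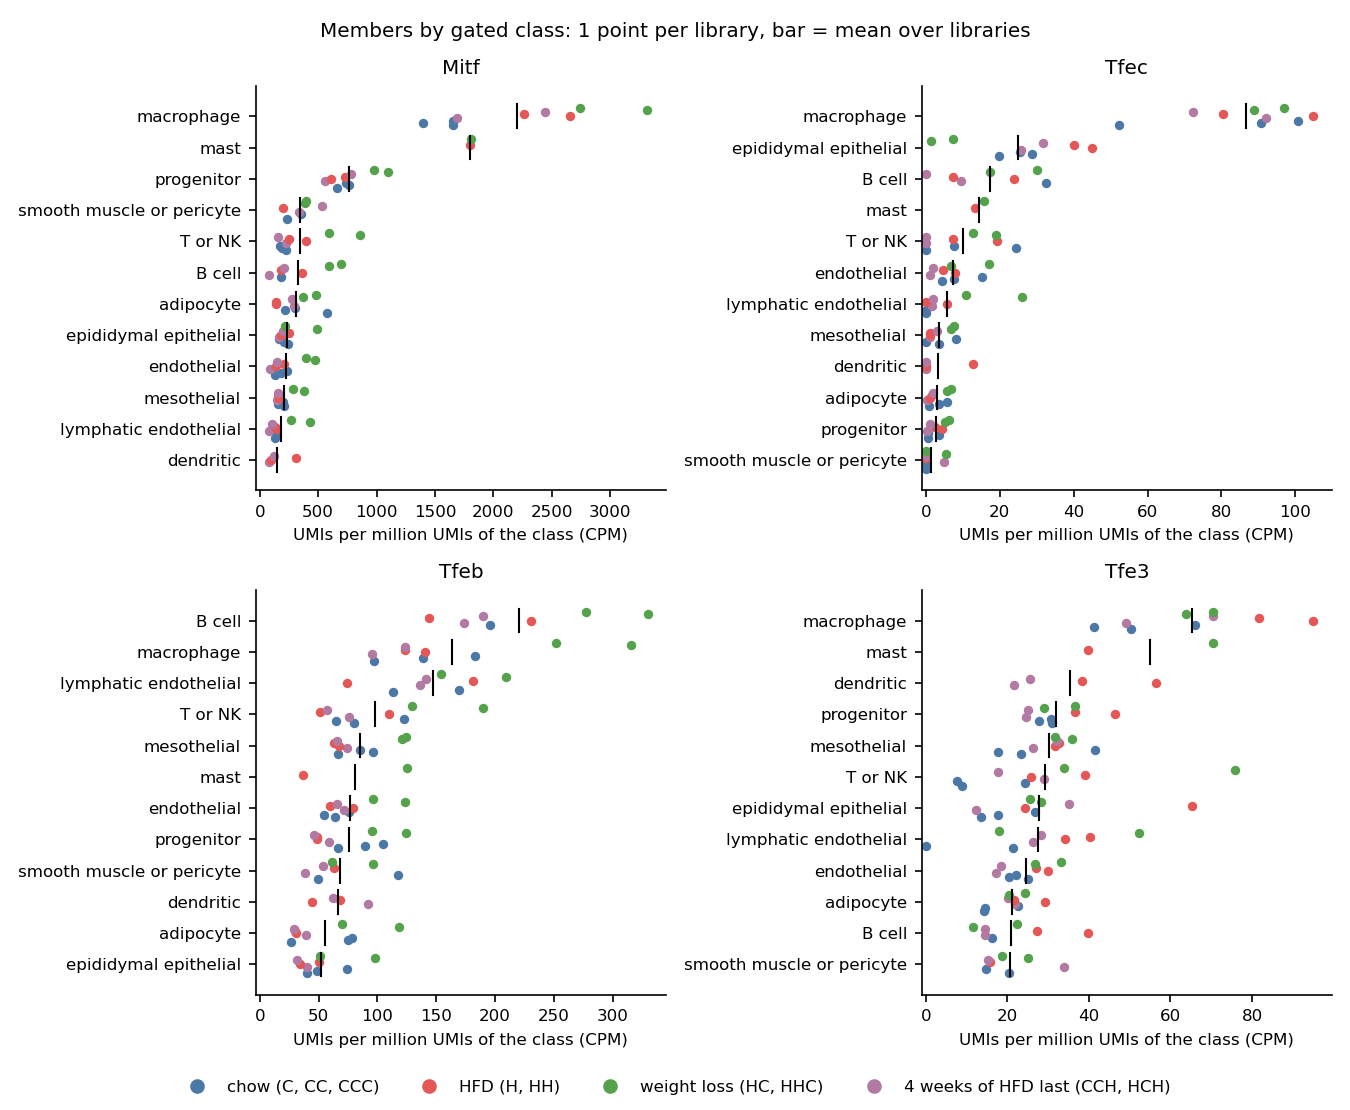
CPM of each member (x axes, linear, from 0) in 12 gated classes, with 1 point for each library that had at least 50 nuclei of the class, coloured by diet state, and a bar for the mean. Mitf in macrophage-like nuclei (1395 to 3317 CPM) and Tfec in macrophage-like nuclei (52.2 to 105 CPM) stand to the right of the other well-sampled classes, whereas Tfeb and Tfe3 ranges overlap between classes.

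The share of nuclei with a UMI gave the same picture once each nucleus was thinned to 1000 UMIs. Of thinned macrophage-like nuclei, 67.3% to 86.6% held a Mitf UMI (85.8% to 97.2% unthinned), against 7.22% to 30.6% of endothelial-like nuclei, which serve as a background class. For Tfec the shares were 4.79% to 8.77% and 0% to 1.77%, and for Tfe3 4.06% to 7.61% and 1.58% to 3.48%. For Tfeb they were 8.19% to 22.7% and 3.98% to 10.5%, which overlap. Nuclei below 1000 UMIs were left out, 2.39% of macrophage-like and 11.3% of endothelial-like nuclei.

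Macrophages of fat differ in kind, and the members divided between the kinds. Macrophage-like nuclei were split by markers that include neither the members nor their known targets Gpnmb and Atp6v0d2. Lipid-associated macrophages (LAM) gather around dying adipocytes in obesity and take up their lipid, perivascular macrophages (PVM) are resident cells along vessels, and non-perivascular macrophages (NPVM) express genes of antigen presentation. The LAM gate held 0.99% to 1.67% of macrophage-like nuclei in C, CC, CCC and CCH, 56.8% and 32.3% in H and HH, 39.7% and 52.0% in HC and HHC, and 13.2% in HCH. The PVM gate held 57.8% to 75.9% in the former 4 libraries and 8.31% to 27.1% in the latter 5.

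Mitf was higher in LAM than in PVM of the same library in each of the 5 libraries with at least 50 nuclei of both. LAM had 3033 and 2741 CPM in H and HH, 3871 and 3091 in HC and HHC, and 3461 in HCH, and PVM had 1732, 1535, 2437, 1781 and 1754 CPM in the same order. The mean log2 difference was 0.82 ± 0.11 (SD, n = 5).

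Tfeb followed Mitf, with 156 and 151 CPM in LAM of H and HH, 385 and 289 of HC and HHC, and 165 of HCH, against 83.0, 72.1, 215, 160 and 71.1 CPM in PVM. The difference was 0.97 ± 0.16 on the log2 scale (SD, n = 5), again in 5 of 5 libraries. Tfec went the other way. It had 95.8 and 74.4 CPM in LAM of H and HH, 87.1 and 88.8 of HC and HHC, and 42.3 of HCH, against 174, 148, 133, 152 and 117 CPM in PVM, a log2 difference of -0.94 ± 0.32 (SD, n = 5) with LAM lower in 5 of 5. Tfe3 differed by 0.13 ± 0.28, higher in LAM in 3 of 5. With 5 libraries the exact two-sided sign-flip permutation test cannot go below p = 0.0625, which Mitf, Tfeb and Tfec each reached (adjusted over the 4 members 0.0833), and Tfe3 had p = 0.438. How many of all genes differ between LAM and PVM in 5 of 5 libraries was not counted, so these values do not set the members apart from other genes.

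NPVM and PVM could be compared in all 9 libraries, chow included, a comparison added after the data were seen. Tfec was lower in NPVM in 9 of 9 libraries, at a mean of 57.2 CPM against 126, a log2 difference of -1.14 ± 0.35 (SD). Tfeb was higher in NPVM in 9 of 9, at 161 against 122 CPM, by 0.42 ± 0.27. Both had an exact sign-flip permutation p of 0.00391, the smallest that 9 libraries allow, and an adjusted value over the members of 0.00781. Mitf was higher in NPVM in 7 of 9 libraries by 0.26 ± 0.19 (permutation p = 0.0156, adjusted 0.0208), with CC and CCH the exceptions. Tfe3 differed by -0.03 ± 0.21 (permutation p = 0.629). The share of all genes that differ between NPVM and PVM in 9 of 9 libraries, or pass the same test, was not counted. These values therefore do not set the members apart from other genes.

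**Figure D2:**
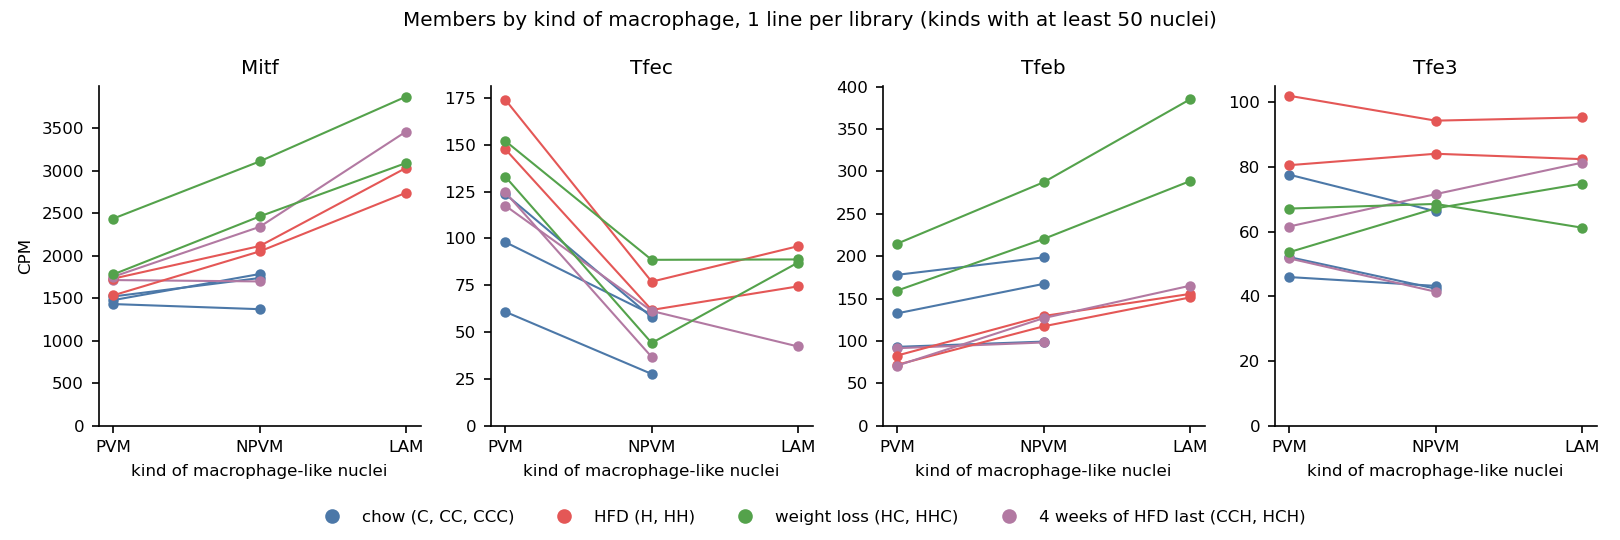
CPM of each member (y axes, linear, from 0) in PVM-gated, NPVM-gated and LAM-gated macrophage-like nuclei, with 1 line per library and only kinds with at least 50 nuclei. Mitf and Tfeb lines climb from PVM to LAM, Tfec lines drop from PVM to NPVM in 9 of 9 libraries, and Tfe3 lines share no direction.

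The effect of diet was asked within classes, with the libraries of one diet state taken as replicates: C, CC and CCC as chow, H and HH as HFD, and HC and HHC as weight loss. The p-values below thus measure the spread between pools that also differ in age and in the length of the diet. In macrophage-like nuclei Mitf was higher after weight loss than in chow, by 0.96 ± 0.21 on the log2 scale (SE, edgeR quasi-likelihood test, adjusted p = 0.0336), with group means of 3029 and 1569 CPM. Tfeb was higher by 1.05 ± 0.26 (SE, edgeR, adjusted p = 0.0482), with means of 283 and 139 CPM. Tfe3 (0.37 ± 0.22, adjusted p = 0.366) and Tfec (0.22 ± 0.28, adjusted p = 0.697) did not pass. Thus 2 of the 4 members were called, against 6.76% of the 14188 genes tested. Mitf and Tfeb were also higher after weight loss in other classes, short of the threshold, as given below.

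Both weight loss libraries are in set S019. Within that set, HC and HHC stood at 3317 and 2742 CPM of Mitf against 1395 and 1659 in CC and CCC. With the set as a term in the fit, which for this contrast leaves the comparison within S019, the Mitf difference was 1.03 (edgeR, adjusted p = 0.0497) and that of Tfeb 0.86 (adjusted p = 0.0907). The Mitf call was lost when any library other than HHC was left out (adjusted p up to 0.111, without HC), and the Tfeb call when any other than CCC was (up to 0.161, without HC).

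Under HFD, Mitf in macrophage-like nuclei differed from chow by 0.52 ± 0.21 (SE, edgeR, adjusted p = 0.0935) with means of 2456 and 1569 CPM, and Tfe3 by 0.64 ± 0.21 (adjusted p = 0.0503) with means of 88.3 and 52.5 CPM. Neither passed, nor did Tfec (0.09 ± 0.27, adjusted p = 0.818) or Tfeb (-0.18 ± 0.26, adjusted p = 0.619). This makes 0 of 4 members, in a fit that called 32.5% of all genes. By unadjusted edgeR p, Mitf (0.0391) and Tfe3 (0.0164) were under 0.05, as were 6372 of the 14188 genes. DESeq2 called Tfe3 (adjusted p = 0.0448), in a fit that called 16.8% of genes as risen and 17.5% as fallen.

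The libraries nonetheless separated by their past diet. The 5 libraries of mice that had 12 weeks or more of HFD first (H, HH, HC, HHC and HCH) had 2259 to 3317 CPM of Mitf, and the 4 that had not (C, CC, CCC and CCH) had 1395 to 1691 CPM, with no overlap. Of all genes with at least 20 UMIs in these nuclei, 15.2% separated the same groups in one direction or the other. The division was seen after the values were known and is a description. The share of LAM, given above, was also higher in all 5. Within the 5, Mitf stood at 2653 CPM with 56.8% LAM in H and at 2259 CPM with 32.3% in HH. It stood at 3317 CPM with 39.7% in HC, 2742 CPM with 52.0% in HHC and 2439 CPM with 13.2% in HCH. The part of the LAM share in these Mitf values was not tested. Tfe3 overlapped, at 63.9 to 94.9 against 41.1 to 66.0 CPM. No member separated the same groups in adipocyte-like (4.31% of genes) or progenitor-like nuclei (6.74%).

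Within single kinds the separation was partly kept. In NPVM alone Mitf had 2052 to 3110 CPM in the 5 libraries and 1372 to 1786 in the other 4, and Tfe3 67.2 to 94.2 against 41.4 to 66.2, neither with overlap, against 11.4% of genes. The Tfe3 groups almost touched, and the NPVM gate held only 50 nuclei in CC and 87 in CCC. In PVM alone Mitf overlapped, at 1535 to 2437 against 1432 to 1715 CPM, as did Tfec at 117 to 174 against 60.9 to 125 CPM. Background for PVM was 7.05% of genes. The fit on PVM alone gave a Mitf difference of 0.00 ± 0.20 for HFD against chow (SE, edgeR, adjusted p = 0.989) and 0.50 ± 0.20 for weight loss against chow (adjusted p = 0.307), and called none of the 4 members in either contrast, with 18.2% and 1.35% of genes called. On NPVM alone none of the 4 passed either (20.2% and 3.24% of genes), and the Mitf differences were 0.23 ± 0.21 and 0.76 ± 0.21 (edgeR, adjusted p = 0.487 and 0.0904).

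In adipocyte-like nuclei the order of the groups was another one. Mitf stood at 573, 217 and 302 CPM in C, CC and CCC, at 138 and 143 in H and HH, at 367 and 482 in HC and HHC, and at 297 and 279.7 in CCH and HCH. H and HH were the lowest of the 9 libraries. HFD differed from chow by -1.61 ± 0.45 (SE, edgeR, adjusted p = 0.0504), which just missed the threshold, with means of 140 and 364 CPM. With the set as a term the difference was -2.39 (edgeR, adjusted p = 0.00804), but the chow side is then C alone, the highest of the 9 libraries, and its spread is assumed to be that of the other groups. DESeq2 gave an adjusted p of 0.0029, in a fit that called 10.4% of genes as risen and 7.05% as fallen. Leaving out C moved the edgeR difference to -1.04 (adjusted p = 0.0194) and leaving out CCC to -1.78 (adjusted p = 0.0325). Without H the difference was -1.59 (adjusted p = 0.235) and without HH -1.70 (adjusted p = 0.272).

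The nuclei limit this value. H had 196 adipocyte-like nuclei and 113 Mitf UMIs, and HH had 436 nuclei and 265 UMIs. The summed macrophage markers in adipocyte-like nuclei were 634 and 742 CPM in H and HH against 546 to 668 in C, CC and CCC, and the part of macrophage RNA in the Mitf values was not tested. Weight loss and chow differed by 0.16 ± 0.42 (SE, edgeR, adjusted p = 0.933).

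Tfeb (-1.12 ± 0.49, adjusted p = 0.14), Tfe3 (0.38 ± 0.29, adjusted p = 0.384) and Tfec (-1.19 ± 0.97, adjusted p = 0.409) did not pass under HFD (edgeR), so that 0 of 4 members passed against 13% of the 14248 genes. Tfec rested on 1 UMI in H and 3 in HH. After weight loss 0 of 4 members and 0% of genes passed in edgeR, with 1367 genes at an unadjusted p under 0.05 and 165 genes called by DESeq2. The HFD effect on Mitf differed between macrophage-like and adipocyte-like nuclei by 2.08 ± 0.41 on the log2 scale (SE, edgeR with the library as a block, adjusted p = 0.0145), an interaction that 7.61% of genes passed. After weight loss the same difference was 0.62 ± 0.40 (adjusted p = 0.642), with 0.544% of genes called.

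**Figure D3:**
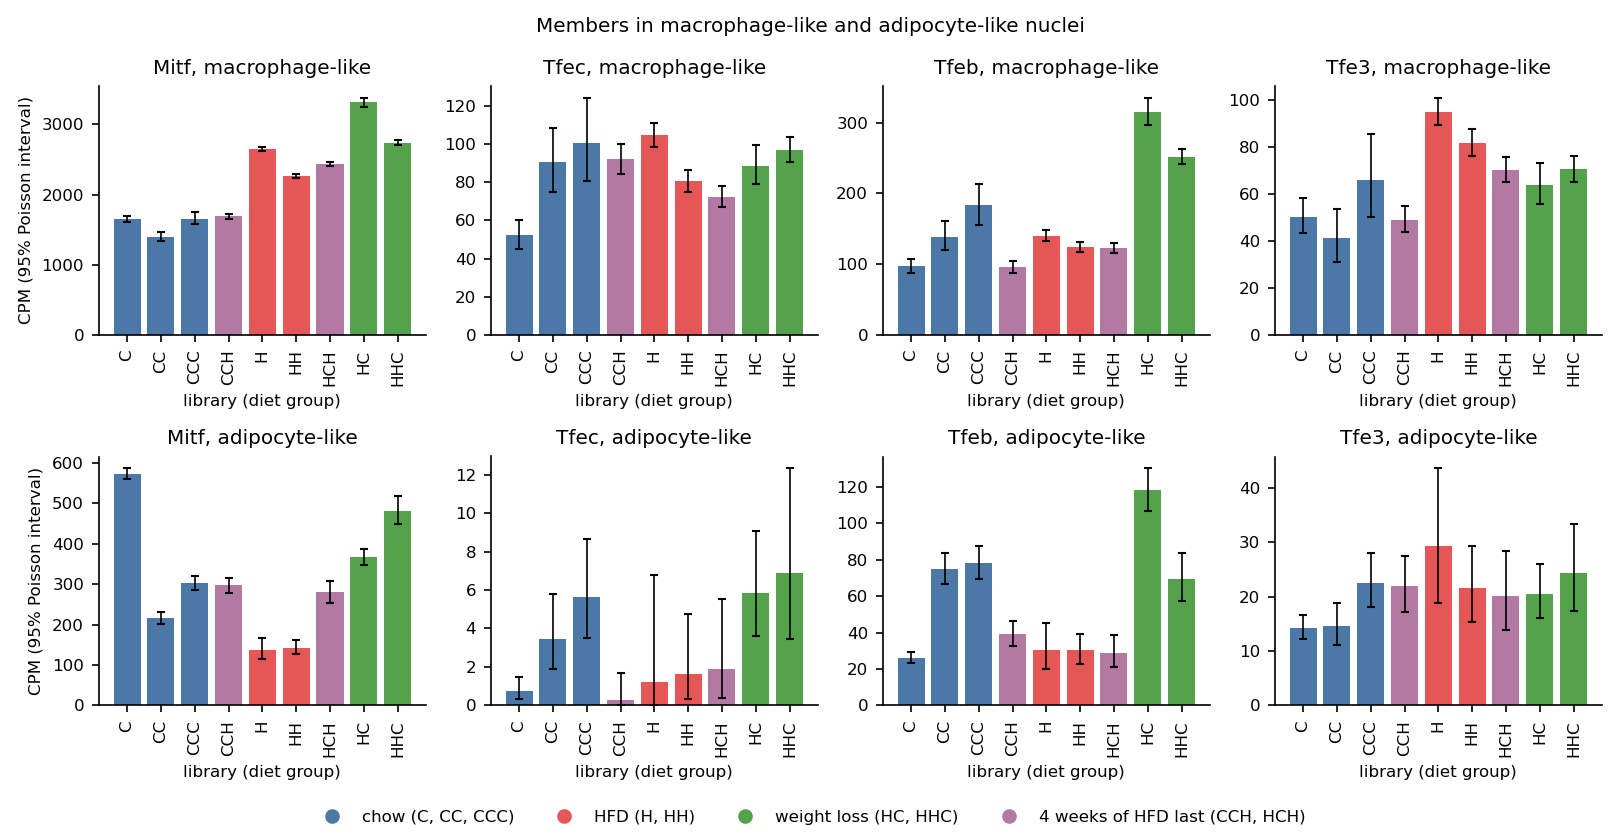
CPM of each member (y axes, linear, from 0) in macrophage-like nuclei (upper row) and adipocyte-like nuclei (lower row) of each library, with exact 95% Poisson intervals for counting error, coloured by diet state. In the upper row Mitf stands at 1395 to 1691 CPM in C, CC, CCC and CCH and at 2259 CPM or more in the other 5, and in the lower row it is lowest in H and HH.

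Other classes gave few calls. In progenitor-like nuclei Tfeb fell under HFD, by 1.04 on the log2 scale (SE 0.25, edgeR, adjusted p = 0.0269), the 1 member of 4 called against 16.4% of genes, but its chow libraries lie on both sides of the set boundary: C had 66.5 CPM, CC 89.6 and CCC 104, H 48.7 and HH 48.9. No member passed in progenitor-like nuclei after weight loss (1.06% of genes). No member passed in endothelial-like (4.26% of genes under HFD and 0.00909% after weight loss), mesothelial-like (8.64% and 0.542%) or epididymal epithelial-like nuclei (0% and 0%, with 1236 and 1206 genes at an unadjusted p under 0.05). Weight loss against chow nonetheless gave Mitf differences of 1.28 ± 0.32, 0.87 ± 0.21 and 0.96 ± 0.47 in these classes (SE, edgeR, adjusted p = 0.255, 0.134 and 0.497). In progenitor-like nuclei it was 0.48 ± 0.20 (adjusted p = 0.308). For Tfeb the differences were 0.78, 0.61, 0.67 and 0.30 in the same order, and 0.74 in adipocyte-like nuclei. HC and HHC were also the highest in several other classes, with 476 and 400 CPM in endothelial-like nuclei against 88.3 to 237 in the other 7 libraries, and 860 and 592 CPM in T or NK-like nuclei against 153 to 399. By thinned shares of nuclei with a Mitf UMI, they also led in B cell-like nuclei (34.6% and 27.6% against 5.16% to 15.6%). The same was so in lymphatic endothelial-like (32.4% and 20.6% against 5.56% to 15.5%) and progenitor-like nuclei (56.6% and 54.4% against 35.2% to 44.6%). Mesothelial-like nuclei had means of 333 CPM after weight loss, 187 in chow and 162 under HFD. By thinned share HC was high there (31.9%), but HHC (17.18%) was not above CC (17.23%). In adipocyte-like nuclei C was the highest, at 573 CPM against 367 and 482, in smooth muscle or pericyte-like nuclei HCH was, at 530.02 against 389.8 and 399, and in epithelial-like nuclei HC was high (490.2 CPM) and HHC was not (219). The share of all genes for which HC and HHC lead in these classes was not counted, so these values do not set Mitf apart from other genes. Free RNA was not measured apart from these values, and its part in the weight loss differences was not tested.

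Over all nuclei, where the share of each class enters, Mitf was at 620.4, 456 and 468 CPM in C, CC and CCC, at 1777 and 1382 in H and HH, at 1318 and 1595 in HC and HHC, and at 709 and 1300.3 in CCH and HCH. HFD against chow gave 1.41 ± 0.24 for Mitf (SE, edgeR, adjusted p = 0.0104), 1.61 ± 0.35 for Tfec (adjusted p = 0.0183), 1.11 ± 0.17 for Tfe3 (adjusted p = 0.00822) and 0.22 ± 0.26 for Tfeb (adjusted p = 0.551). Thus 3 of 4 rose, against 29.6% of genes called. After weight loss Mitf (1.52), Tfeb (1.20) and Tfe3 (0.77) rose and Tfec (1.28, adjusted p = 0.0768) did not pass, against 6.39% of genes. Macrophage-like nuclei were 12.8%, 9.84% and 6.56% of kept nuclei in C, CC and CCC. They were 41.8% and 34.2% in H and HH, and 18.6% and 28.5% in HC and HHC. A higher share of macrophages and more RNA per macrophage cannot be told apart in such sums, and the part of the share was not tested.

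The pairs of libraries that the design sets side by side have no replicates, and only counting intervals (exact conditional, 95%) can be given. A gene with at least 20 UMIs over both libraries was called at 2-fold or more with a log2 interval off 0. In macrophage-like nuclei Mitf was 1.61-fold higher in H than in C, 1.62-fold in HH than in CC, 2.38-fold in HC than in CC, 1.65-fold in HHC than in CCC, 1.44-fold in HCH than in CCH and 1.21-fold in CCH than in CC. All 6 intervals excluded 1, and the ratio for 4 weeks of first HFD was the smallest. Tfec was 2.01-fold higher in H than in C (log2 interval 0.78 to 1.23) and 1.54-fold higher in HH than in C (0.39 to 0.86), both within set S075. HH with CC and CCH with CC are pairs across the sets, and there the set and the diet cannot be told apart. Tfec was lower in HCH than in CCH, also within S075, at 0.787-fold (-0.51 to -0.18). For Tfec in HH against CC the ratio was 0.887 with an interval that held 0 (-0.45 to 0.12), and Mitf was 1.37-fold higher in HH than in C within the set. Tfeb was 2.27-fold higher in HC than in CC and 1.38-fold in HHC than in CCC.

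Called members in macrophage-like nuclei were 1 of 4 in H against C (37.2% of all genes), 0 in HH against CC (37.9%) or C (37.6%) and 2 in HC against CC (21%). For HHC with CCC (15%), HCH with CCH (18.8%) and CCH with CC (18.7%) the count was 0. In adipocyte-like nuclei they were Mitf (0.241-fold) and Tfe3 (2.05-fold) in H against C (29.6% of genes), Tfeb (0.403-fold) in HH against CC (34.8%) and Mitf (0.249-fold) in HH against C (34.6%). The Tfeb pair crosses the sets, and within S075 Tfeb in HH was 1.15-fold that in C (log2 interval -0.23 to 0.62), which was not called. None were called between HC and CC (11.4%), HHC and CCC (13.8%), HCH and CCH (17.8%) or CCH and CC (14.7%). Tfec had fewer than the 20 UMIs asked for over both libraries in 5 of these 7 adipocyte pairs.

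Genes of the lysosomal pathway were followed by list, in the same fits. LAM were 56.8% and 32.3% of macrophage-like nuclei in H and HH and 39.7% and 52.0% in HC and HHC, against 0.99% to 1.67% in chow. The list counts were not made within kinds, and the part of the LAM share in them was not tested. In macrophage-like nuclei under HFD, 17 of 27 lysosomal hydrolases rose and 0 fell, with a list median of 1.81 on the log2 scale against 0.05 over all genes, of which 17.6% rose and 14.9% fell. Ctsk (cathepsin K, a collagen-degrading protease) rose by 5.19 ± 0.63 (SE, edgeR, adjusted p = 0.00189), Ctsl (cathepsin L) by 3.99 ± 0.72 (adjusted p = 0.00612), Gla (alpha-galactosidase A) by 3.70 ± 0.45 (adjusted p = 0.00188) and Ctsd (cathepsin D) by 3.67 ± 0.41 (adjusted p = 0.00158). Gla stood at 1.90, 1.52 and 4.63 CPM in C, CC and CCC (7, 2 and 4 UMIs), at 35.1 and 31.1 in H and HH, at 20.3 and 43.2 in HC and HHC, and at 3.53 and 20.03 in CCH and HCH.

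Of the V-ATPase subunits, 11 of 14 rose and 0 fell (median 1.11). Atp6v0d2, a macrophage and osteoclast subunit of the pump that is known as a target of the family, stood at 72.6, 20.6 and 140.1 CPM in C, CC and CCC, at 899.7 and 1064 in H and HH, at 1014 and 1268 in HC and HHC, and at 51.4 and 759.5 in CCH and HCH, and rose by 3.58 ± 0.54 (SE, edgeR, adjusted p = 0.00372). Atp6v0c (2.25), Atp6v0b (2.09) and Atp6v1b2 (1.69), further subunits of the pump, rose as well. C, CC, CCC and CCH were lowest for Atp6v0d2, as for Mitf, and 15.2% of genes separated the same groups in one direction or the other. The share of LAM was also lowest in these libraries.

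Of 12 lysosomal membrane genes 6 rose and 0 fell (median 0.61), led by Gpnmb (4.64 ± 0.68, adjusted p = 0.00335), a glycoprotein of lysosomes and melanosomes that MITF is known to switch on, then Cd63 (3.32), Lamp1 (1.45) and Pip4p1 (0.93). Gpnmb stood at 49.7, 18.3 and 159.7 CPM in C, CC and CCC, at 2159 and 1725 in H and HH, at 2213 and 4063 in HC and HHC, and at 23.5 and 934 in CCH and HCH. Within LAM of the 5 libraries with enough nuclei Gpnmb had 2783 to 6007 CPM, and within PVM 202 to 1253 CPM in the same libraries and 3.80 to 19.4 CPM in C, CC, CCC and CCH. Gpnmb was high in the same libraries as the LAM share.

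Of 12 autophagy genes 3 rose (Gabarap 1.59 and Map1lc3b 1.42, both of the family that coats autophagosomes, and Sqstm1 1.13, an autophagy receptor) and 1 fell, Uvrag, by 0.86 on the log2 scale (SE 0.23, edgeR, adjusted p = 0.024). The list median was -0.17 against 0.05 over all genes, and these shares lie near those of all genes (17.6% rose and 14.9% fell). Of the pigment cell targets, 4 of 12 were tested and 1 fell, Bcl2, an inhibitor of cell death, by 0.91 (adjusted p = 0.0375).

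Of the 23 genes of upstream control 6 rose and 0 fell (median 0.26), whereas DESeq2 had 5 that rose and 2 that fell. The shares that rose lie near the 17.6% of all genes in edgeR and 16.8% in DESeq2. The DESeq2 counts for the other 5 lists were the same as those of edgeR. Fnip2, a partner of folliculin and a known target of TFE3, rose by 1.46 ± 0.19 (SE, edgeR, adjusted p = 0.0024), Rraga, a Rag GTPase, by 2.05, Lamtor2 by 1.65 and Lamtor4 by 1.04, both subunits of the Ragulator that anchors the Rag GTPases. Fnip2 stood at 264, 209.5 and 314 CPM in C, CC and CCC, at 793 and 774 in H and HH, at 1039.5 and 1110.0 in HC and HHC, and at 284 and 698 in CCH and HCH. Its groups by first HFD did not overlap, as was so for 15.2% of genes. Flcn (folliculin) differed by 0.16 ± 0.22 (adjusted p = 0.605) and Rragd by 2.13 ± 0.75 (adjusted p = 0.0582) from 14.5 CPM or less in each library.

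After weight loss 14 of the 27 hydrolases, 5 of 14 V-ATPase subunits, 5 of 12 membrane genes, 2 of 12 autophagy genes, 1 of 23 upstream genes and 0 of 4 tested pigment targets rose in macrophage-like nuclei, and none fell, against 4.31% of genes that rose and 2.45% that fell. DESeq2 had 16, 7, 5, 2, 3 and 0 that rose, in the same order of lists, and none that fell. The 1 upstream gene in edgeR was Fnip2 (2.04 ± 0.19, SE, edgeR, adjusted p = 0.00142). Gpnmb rose by 5.44 ± 0.70 (adjusted p = 0.00387), Atp6v0d2 by 3.92 ± 0.55 (adjusted p = 0.00517), Gla by 3.75 ± 0.45 (adjusted p = 0.00312) and Ctsd by 3.57 ± 0.41 (adjusted p = 0.00264). Lamp1 rose by 1.11, while Atp6v0c (0.92, adjusted p = 0.17), Atp6v0b (0.76, adjusted p = 0.0732), Map1lc3b (0.26, adjusted p = 0.686) and Gabarap (0.54, adjusted p = 0.237) did not pass. Rragd differed by 2.77 ± 0.74 (adjusted p = 0.0647).

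In adipocyte-like nuclei under HFD 10 of 27 hydrolases, 3 of 14 V-ATPase subunits, 4 of 12 membrane genes and 2 of 12 autophagy genes rose and none fell, 0 of 21 tested upstream genes passed and 1 of 4 tested pigment targets fell, against 9.37% of genes that rose and 3.64% that fell. These counts rest on both HFD libraries, since without H 5 genes in all were called in this fit and without HH 7. In DESeq2 the counts were 11 hydrolases, 4 subunits, 3 membrane genes and 2 autophagy genes that rose, and 2 upstream genes, 1 autophagy gene and 1 pigment target that fell. Gpnmb rose by 4.74 ± 0.94 (SE, edgeR, adjusted p = 0.0199), but its level in adipocyte-like nuclei (418 and 243 CPM in H and HH, 254 and 1234 in HC and HHC) was below that in macrophage-like nuclei of the same library. Macrophage RNA in these nuclei, for which the marker sums are given above, was not removed and its part was not tested. Fnip2 differed by -0.43 ± 0.23 (adjusted p = 0.224).

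**Figure D4:**
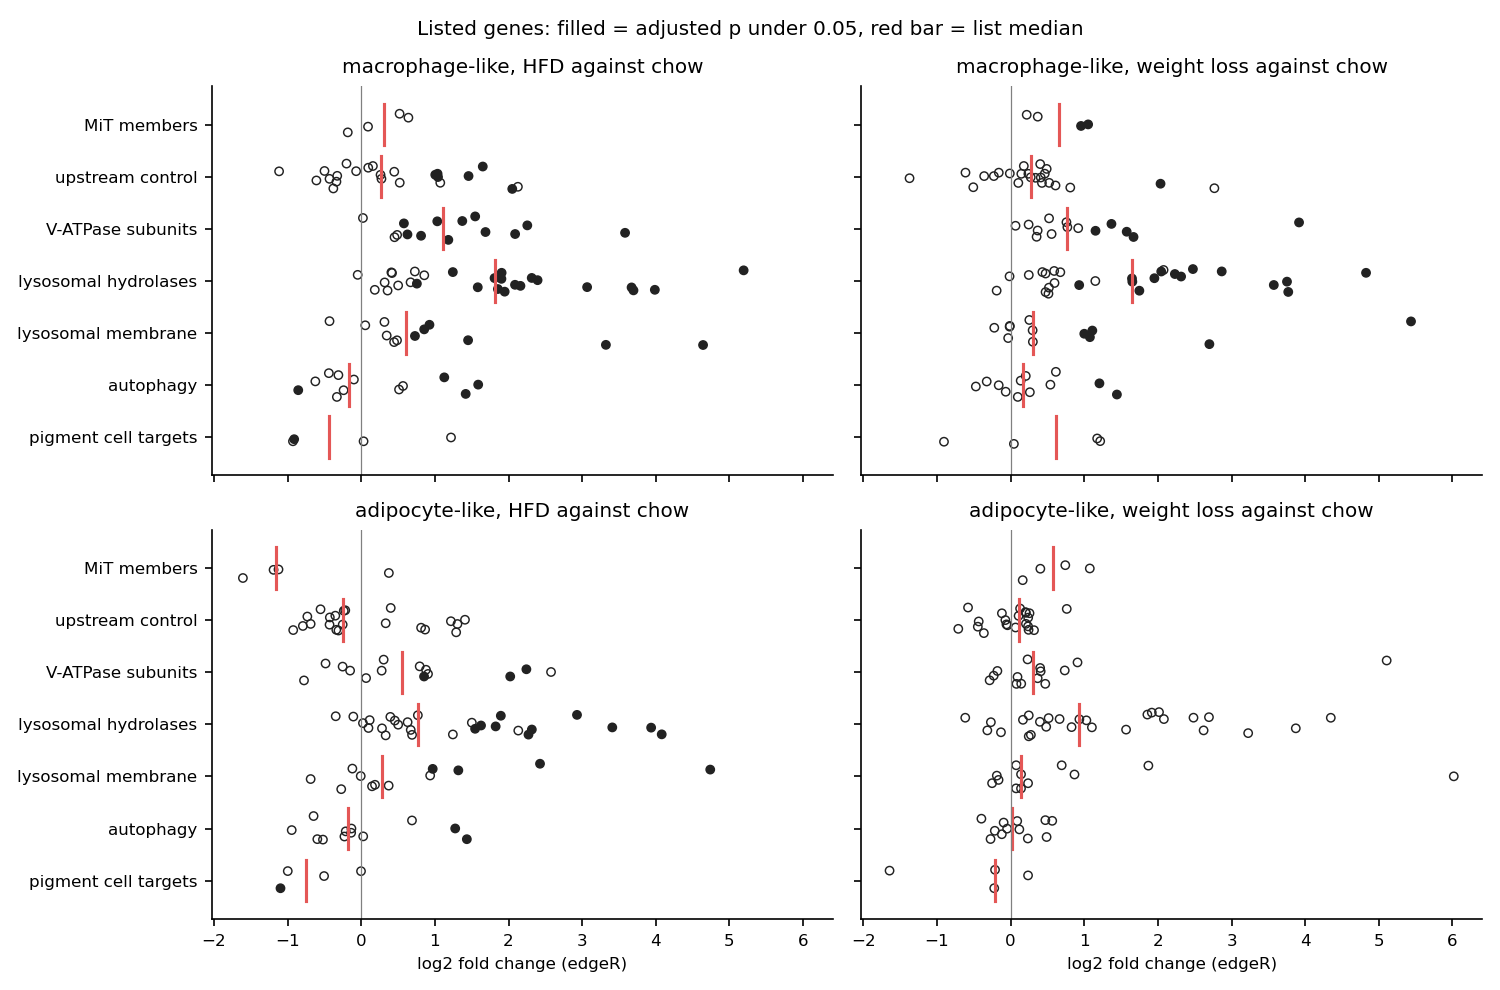
Log2 fold change (x axes) of each tested gene of the members and the 6 lists in edgeR fits of macrophage-like (upper row) and adipocyte-like nuclei (lower row), for HFD (left) and weight loss (right) against chow, with filled points past adjusted p 0.05 and a red bar at the list median. Hydrolases in macrophage-like nuclei have medians of 1.81 and 1.65, while the members lie between -1.61 and 1.08.

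Likeness of pattern was measured over 91 sums of a class in a library with at least 50 nuclei (12 classes) among 16413 genes, as Pearson's r of log2(CPM + 1). These sums share libraries, depth and free RNA, so r is a description with no p. Most like Mitf were P2rx4 (a purinergic ion channel, r = 0.796), Reps2 (0.773) and Itsn1 (0.771, a scaffold of endocytosis). Most like Tfec were Cacna1d (a calcium channel subunit, 0.735), Dnajc13 (0.713) and B4galt6 (0.709), most like Tfeb were Macf1 (0.74), 9930111J21Rik2 (0.724) and Git2 (0.716), and most like Tfe3 were Nufip1 (0.67), Atf3 (0.64) and Sirpa (0.638). No member was among the 3 nearest genes of another. Mitf and Tfec had r = 0.536, Mitf and Tfe3 0.506, Tfec and Tfe3 0.476, Tfeb and Tfec 0.321, Mitf and Tfeb 0.301, and Tfeb and Tfe3 0.0942.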

How the data were processed

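Single-nucleus RNA-seq of epididymal fat (10x 3′ chemistry) was analysed in 9 libraries. The deposited matrices hold counts: per the labels and methods, the authors made raw UMI counts with Cell Ranger 6.1.2 on mm10 with intronic reads included, and analysed them in Seurat 4.1.0. Isoforms are not separated. Their limits were applied here: 500 to 3000 genes and at most 40000 UMIs. Doublets were removed with Scrublet (scanpy 1.11.5) in place of the study's scDblFinder, by top score at 0.8% per 1000 nuclei in the 4 libraries where its threshold marked under 0.5%. Mitochondrial genes and Malat1 were left out. The study estimated free RNA with SoupX and corrected no sample, and none was corrected here. The total counts per library set the precision, and intervals cover counting error only.

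A nucleus was gated to 1 of 14 classes when at least 2 distinct markers were detected, the Poisson -log10 p of its summed markers against their rate in nuclei of other classes of the same library reached 3, and it led the next class by 2. Kinds of macrophage needed 2 distinct markers and more than any other kind. Counts were summed per class and library and tested with edgeR 4.0.16 (TMM, filterByExpr, quasi-likelihood, Benjamini-Hochberg over all genes, standard errors as the log2 fold change over the root of F). DESeq2 1.42.0 was an alternative. Ratios between classes add 0.5 counts and were tested by exact sign-flips. Scripts were tested on simulated data. Motifs were searched in RefSeq windows of all 4 members and of the listed genes found there.

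The members and the pathway lists (99 genes in 6 lists) were chosen with earlier results of these data known. The gate was settled after levels of the members by class had been seen, and the gate by marker count alone, the fits within kinds, the interaction between classes, the comparison of NPVM with PVM, the groups by first HFD and the pairs of macrophage-like with progenitor-like nuclei were added after seeing the data. Named genes were the members, up to 4 called genes per list with the largest change in macrophage-like nuclei under HFD, Gpnmb, Atp6v0d2, Flcn, Fnip2 and Rragd, and the 3 nearest genes by pattern. CCH and HCH were outside the fits, having no second library of their state.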

Additional observations from a re-analysis of the deposited data

Results flagged for a closer look

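The difference in the HFD effect on Mitf between macrophage-like and adipocyte-like nuclei, 2.08 on the log2 scale, met the rule that an effect differs between groups by a test of the difference itself (edgeR interaction with the library as a block, adjusted p = 0.0145, 7 libraries). Mitf stood at 2653 and 2259 CPM in macrophage-like nuclei of H and HH against 1395 to 1659 in chow, and at 138 and 143 CPM in adipocyte-like nuclei against 217 to 573. LAM were 56.8% and 32.3% of macrophage-like nuclei in H and HH against 0.99% to 1.67% in chow, and within kinds the HFD effect on Mitf was 0.00 in PVM (edgeR, adjusted p = 0.989) and 0.23 in NPVM (adjusted p = 0.487). Neither effect alone passed the adjusted threshold in its own class. No other member passed this test. Groups of a single library were not examined for outlying samples.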

How the results depend on the processing

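The labels give no replicate numbers, so no replicate block was fitted between groups. All values are log2 differences unless they are counts of genes. Mitf in macrophage-like nuclei after weight loss ranged from 0.75 to 1.16 when a library was left out, and was 0.50 in PVM and 0.76 in NPVM alone, below the threshold in both. Tfeb there ranged from 0.82 to 1.28, and lost its call with library sizes alone (1.04), with the set as a term (0.863), in PVM (0.496) and in NPVM (0.74). Under HFD, Mitf in macrophage-like nuclei (left-out range 0.398 to 0.626) was called with library sizes alone (0.647) and without the filter (0.616), and Tfe3 (0.516 to 0.794) with DESeq2 (0.608), library sizes alone (0.765), no filter (0.736) and no upper gene limit (0.654). Of all genes, DESeq2 called 16.8% as risen and 17.5% as fallen in macrophage-like nuclei under HFD, and 10.4% and 7.05% in adipocyte-like nuclei. Mitf in adipocyte-like nuclei under HFD (left-out range -1.92 to -1.04) was called with DESeq2 (-1.66), no filter (-1.70), the set as a term (-2.39) and the gate by marker count (-1.74), and Tfeb there (-1.50 to -0.914) without the filter (-1.18).

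Values that were not called changed sign as follows. Tfeb in macrophage-like nuclei under HFD was 0.311 with the set as a term and -0.38 to 0.0312 with a library left out. Tfec there was -0.103 with the gate by marker count and -0.148 to 0.261 with a library left out, and after weight loss -0.0136 with the set as a term and -0.0184 to 0.38. Tfec in adipocyte-like nuclei under HFD was 0.571 with the set as a term. Mitf in adipocyte-like nuclei after weight loss was -0.0428 without the upper gene limit and -0.121 to 0.756 with a library left out. With the gate by marker count Tfec in macrophage-like over epithelial-like nuclei was 3.21 and Tfeb in B cell-like over macrophage-like nuclei 0.602, each in fewer libraries than in the main gate and not past the threshold.

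Counts of called genes moved more. In macrophage-like nuclei under HFD the 4605 genes became 2063 with the set as a term and 1329 to 5149 with a library left out. After weight loss the 959 became 1501 with DESeq2, 2385 without the filter, 1870 without the upper gene limit, 538 with the set as a term and 367 to 1039 with a library left out. In adipocyte-like nuclei under HFD the 1853 became 3561 without the filter, 3387 without the upper gene limit and 5 to 2588 with a library left out, fewest without H (5) and HH (7). After weight loss the 0 became 165 with DESeq2 (12 of them in the lists), 745 without the filter, 10 without the upper gene limit and 0 to 30. Leaving out libraries also leaves fewer samples. The differences between LAM and PVM kept their sign under the stricter gate and without each library. Depth limits Tfec in adipocyte-like nuclei, with 1 UMI in H and in CCH and 3 in HH and in HCH.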
